A study of Mus musculus with 16 samples.

Results

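The 10 genes described here encode the core enzymes of fatty acid synthesis, elongation and desaturation in mouse: *Acly*, *Acaca*, *Fasn*, *Scd1*, *Scd2*, *Elovl1*, *Elovl5*, *Elovl6*, *Fads1* and *Fads2*. They were taken by gene symbol from a count table of 47069 genes, and 9 of them had enough reads to be among the 13211 genes tested. *Scd1* was not tested. The counts came from bone marrow-derived macrophages (BMMs) of wild-type C57BL/6 mice aged 8 to 10 weeks, grown in L929-conditioned medium and harvested on day 7. All BMMs were primed overnight with IFNγ (10 ng/mL) and activated for 1 hr with Salmonella LPS (100 ng/mL) together with IgG-opsonized ovalbumin, an immune complex (LPS/IC). One group received DAPT at 25 µM, a gamma-secretase inhibitor (GSI) that blocks Notch receptor cleavage among other substrates, and the other received the vehicle, 0.01% DMSO. Unstimulated cells were not analysed here, so every value describes inhibitor against vehicle in activated cells. Each group had 2 replicates, and the labels do not say whether these were separate cultures or animals, so the p-values measure only the spread between these libraries.

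New fatty acids are built in the cytosol from acetyl-CoA. ATP citrate lyase (*Acly*) releases acetyl-CoA from citrate, acetyl-CoA carboxylase (*Acaca*) turns it into malonyl-CoA in the committed step, and fatty acid synthase (*Fasn*) joins these units into palmitate. In the endoplasmic reticulum, *Elovl* enzymes lengthen the chain, stearoyl-CoA desaturases (*Scd1*, *Scd2*) place the double bond that makes oleate and palmitoleate, and *Fads1* and *Fads2* add double bonds to polyunsaturated chains on the way to arachidonate. Macrophages use these products for membranes and lipid mediators, and several of the genes are textbook targets of the transcription factors SREBP-1 or LXR.

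The total per library was between 42694655 and 56932059 counts, so that 3 counts, the floor used here, corresponded to 0.0527 to 0.0703 counts per 1000000 counts (CPM). The labelled cell type fitted its markers: the summed level of 7 macrophage genes was 6859 and 7100 CPM in the DMSO libraries and 5073 and 5628 CPM in the DAPT libraries. Markers of fibroblasts summed to at most 0.162 CPM, markers of neutrophils and their precursors to at most 1.29 CPM and lymphocyte markers to at most 1.16 CPM in any library. Adipocytes, a cell type known for this pathway, were not visible, since 4 of their 5 markers were at 0 in every library and the summed level reached 0.0207 CPM in DAPT replicate 1 alone. Dendritic cell markers summed to 7.11 and 7.28 CPM with DMSO and to 6.21 and 5.61 CPM with DAPT.

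*Scd1* and *Scd2* are near copies, so the sequence decides whether their reads can be told apart. Their coding sequences were identical at 962 of 1065 aligned bases (90.3%, GENCODE M21 on GRCm38), and the longest identical run was 147 bases. The stretch of 90 coding bases in which they are least alike is shown, bases 75 to 164 of the *Scd1* and 84 to 173 of the *Scd2* coding sequence, with the 30 differing bases in capitals.
Scd1: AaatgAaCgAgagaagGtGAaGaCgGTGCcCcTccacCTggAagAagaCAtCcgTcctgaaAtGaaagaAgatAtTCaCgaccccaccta
Scd2: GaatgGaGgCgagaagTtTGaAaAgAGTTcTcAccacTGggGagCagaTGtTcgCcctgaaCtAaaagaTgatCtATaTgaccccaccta
Over the whole transcripts, 4.56% of the 50-base words of *Scd1* and 3.97% of those of *Scd2* also occurred in another gene, so most positions of either mRNA were unique at that length. *Fads1* and *Fads2* were less alike (67.9% of aligned coding bases), as were the pairs among *Elovl1*, *Elovl5* and *Elovl6* (61.9% to 63%). The least unique member was *Acaca*, whose gene model shared 30.4% of its words with 202 other genes.

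Promoter sequence from RefSeq (GRCm38.p6, 250 bases before to 50 after the start) was matched for 7 of the 10 members, *Elovl1* with 2 starts, giving 8 windows. *Scd1*, *Scd2* and *Fads1* had no entry. Of the boxes searched on both strands, CCAAT (the NF-Y box) stood in 4 of the 8 windows and in 37.4% of 32851 windows of all genes, and GGGCGG (the Sp1 box) stood in 4 of 8 and in 35.7% of all. The stretches just upstream of the start of *Fasn* (chr11:120824548-120824647, minus strand), *Elovl5* (chr9:77917195-77917364, plus strand) and *Elovl1* (chr4:118427993-118428092, plus strand) are shown because *Fasn* and *Elovl5* fell with DAPT while *Elovl1* rose. Capitals mark CCAAT on either strand and the E-box CACGTG, and in *Fasn* a forward and a reverse CCAAT overlap.
Fasn: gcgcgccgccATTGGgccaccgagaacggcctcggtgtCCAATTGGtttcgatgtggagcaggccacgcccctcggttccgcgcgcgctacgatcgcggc
Elovl5: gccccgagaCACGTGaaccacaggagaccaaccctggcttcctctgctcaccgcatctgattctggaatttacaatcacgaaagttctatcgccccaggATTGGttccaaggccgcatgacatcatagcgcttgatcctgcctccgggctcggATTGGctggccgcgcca
Elovl1: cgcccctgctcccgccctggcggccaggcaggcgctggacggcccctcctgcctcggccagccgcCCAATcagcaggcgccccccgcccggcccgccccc
Of the 4 genes with a window that fell, 2 (*Fasn* and *Elovl5*) held CCAAT and 2 (*Acaca* and *Elovl6*) did not, and of the 2 windows of *Elovl1*, which rose, 1 held it. CACGTG stood in 1 of the 8 windows (*Elovl5*) and in 7.15% of all, and TGGGAA, the core box of the Notch co-factor RBPJ, in 2 of 8 (*Acaca* and *Fads2*) and in 25.6% of all. The sterol response element forms TCACNCCAC (1.24% of all windows) and TCACNTGAC (1.69%) and the LXR element, a pair of AGGTCA repeats 4 bases apart (0.0152%), were in 0 of the 8 windows. These are matches of letters in short windows and say nothing of binding.

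With DAPT, 5 of the 9 tested genes fell, 1 rose and 3 did not pass the test (edgeR's quasi-likelihood test, Benjamini-Hochberg FDR under 0.05 over all genes tested). *Scd2*, *Elovl6*, *Acaca*, *Elovl5* and *Fasn* fell, *Elovl1* rose, and *Acly*, *Fads1* and *Fads2* were not called. In DESeq2 3 fell and 1 rose, with a cut-off of 1.5-fold beside the FDR 2 fell and 0 rose, and without DMSO replicate 1 4 fell and 0 rose. For comparison, 21.9% of all tested genes fell and 19% rose by the same rule, together 40.8%. The median log2 fold change was −0.37 over the 9 genes and 0.015 over all tested genes. The DAPT libraries lay below both DMSO libraries for 6 of the 10 members and above both for 2, while 70.6% of all tested genes did not overlap between groups. In edgeR 0 of 9 passed the stricter pair of thresholds, FDR under 0.05 with an absolute log2 fold change above 1.5, which 2.91% of tested genes passed (0 also with an unadjusted p under 0.05 in place of the FDR, and 0 in DESeq2). With 2 against 2 libraries the smallest 2-sided p of an exact permutation test of a single gene is 0.333, so the tests rest on the spread shared across genes. In bulk RNA, fewer cells of a type and less RNA per cell cannot be told apart.

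**Figure D1:**
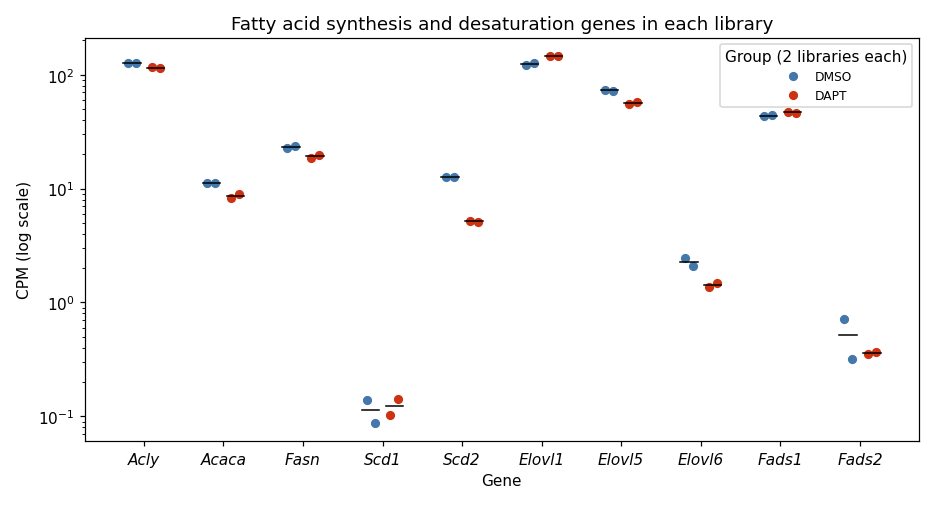
Level of each of the 10 genes in each library, in CPM on a log scale, with 1 point per library (blue DMSO, red DAPT, 2 each) and a line at the group mean. *Scd2* shows the widest gap between groups among the genes called, from about 12.6 to 5.14 CPM, while *Scd1* and *Fads2* lie below 1 CPM and overlap.

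*Acly*, the enzyme that supplies acetyl-CoA, was among the more abundant of the 10 transcripts and was not called. It (ENSMUSG00000020917, chr11:100476353-100528000, minus strand) stood at 126 and 127 CPM in the DMSO libraries and at 116 and 114 CPM in the DAPT libraries. Both DAPT values were lower, and the 95% interval of the log2 fold change ran from −0.29 to 0.00053 around −0.14 (SE 0.0685). The FDR was 0.103 (edgeR's quasi-likelihood test).

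*Acaca*, which commits acetyl-CoA to fatty acid synthesis, fell. It (ENSMUSG00000020532, chr11:84129672-84401651, plus strand) stood at 11.1 and 11.3 CPM with DMSO and at 8.25 and 8.89 CPM with DAPT, without overlap. Its log2 fold change was −0.39 (SE 0.101, 95% interval −0.60 to −0.18, edgeR FDR 0.00419), so that its level fell by 23.6%. Leaving out any 1 library kept it between −0.44 and −0.34 and called in 4 of 4 fits. *Acacb*, the isoform tied to mitochondria and to the control of fatty acid oxidation, was scarce, with 29 and 18 counts in the DMSO and 27 and 26 counts in the DAPT libraries (log2 fold change 0.19, edgeR FDR 0.717), and without DMSO replicate 2 its value was −0.32.

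*Fasn*, the palmitate synthase, fell by less. It (ENSMUSG00000025153, chr11:120805846-120824547, minus strand) stood at 22.7 and 23.6 CPM with DMSO and at 18.7 and 19.8 CPM with DAPT. The groups did not overlap and the level fell by 16.9% (log2 fold change −0.27, SE 0.0835, 95% interval −0.44 to −0.092, edgeR FDR 0.0148). This call depended on single libraries: it was lost without DMSO replicate 2 (−0.24, edgeR FDR 0.0961) and without DAPT replicate 1 (−0.22, edgeR FDR 0.0832). DESeq2 did not call it (−0.27, FDR 0.0512).

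*Scd2*, a stearoyl-CoA desaturase, had the largest change of the 9 tested genes. It (ENSMUSG00000025203, chr19:44293674-44306864, plus strand) stood at 12.6 and 12.5 CPM with DMSO, from 543 and 712 counts, and at 5.19 and 5.08 CPM with DAPT, from 251 and 251 counts. Its level with DAPT was thus 0.408 of that with DMSO. The gap between groups far exceeded the spread within them (SD 0.0503 and 0.0776 CPM, n = 2 each). These SDs are smaller than the counting error of such counts, so they understate the spread to be expected. The log2 fold change was −1.29 (SE 0.106, 95% interval −1.51 to −1.07, edgeR FDR 6.53e-09), and without any 1 library it stayed between −1.31 and −1.28. On the same strand *Scd2* shares 61 exon bases with *Mir5114*, which had 0 counts in every library.

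*Scd1*, the paralog that dominates in liver and fat, was near the floor in these cells. It (ENSMUSG00000037071, chr19:44394455-44407879, minus strand) had 6 and 5 counts in the DMSO and 5 and 7 counts in the DAPT libraries, which overlapped at 0.0881 to 0.142 CPM. Per kilobase of exon, *Scd2* made up 98.8% and 99.2% of the *Scd1* and *Scd2* signal with DMSO and 97.8% and 97.0% with DAPT. The *Scd1* share was 1.22% (95% Wilson interval 0.560% to 2.63%) and 0.778% (0.333% to 1.81%) with DMSO and 2.18% (0.934% to 4.99%) and 3.02% (1.47% to 6.10%) with DAPT. Both DAPT shares were the higher ones, but all 4 intervals, which cover counting error only, met those of the other group. The other mouse copies were practically absent, *Scd3* with 0 counts throughout and *Scd4* with 2 counts in DMSO replicate 2 and 0 elsewhere. The stearoyl-CoA desaturase counts in these BMMs therefore came almost wholly from *Scd2*.

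The *Elovl* enzymes, which start each round of chain elongation, moved in both directions. *Elovl1*, which acts on saturated and monounsaturated very long chains used in sphingolipids, was the member that rose. It (ENSMUSG00000006390, chr4:118428093-118432953, plus strand) stood at 121 and 126 CPM with DMSO and at 145 CPM in both DAPT libraries. The rise was 17.3% (log2 fold change 0.23, SE 0.0686, 95% interval 0.087 to 0.37, edgeR FDR 0.0108). Without DMSO replicate 1 it was 0.20 and no longer called (edgeR FDR 0.108, against 3.36e-09 to 0.0394 in its other alternatives). *Elovl1* shares 53 exon bases with *Cdc20* on the other strand, whose counts fell (396 and 546 with DMSO, 133 and 207 with DAPT). The libraries were stranded, but the strand setting of the counting is not given in the sources used here.

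*Elovl5*, which elongates polyunsaturated chains, fell. It (ENSMUSG00000032349, chr9:77917364-77984519, plus strand) stood at 73.7 and 72.2 CPM with DMSO and at 55.7 and 57.2 CPM with DAPT. It fell by 22.6%, with a gap between groups many times the spread within them (log2 fold change −0.37, SE 0.0708, 95% interval −0.52 to −0.22, edgeR FDR 0.000292), and was called in 4 of 4 fits without 1 library (−0.39 to −0.35).

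*Elovl6*, which extends palmitate to stearate, the substrate of *Scd2*, was low and fell. It (ENSMUSG00000041220, chr3:129532355-129638495, plus strand) had 105 and 118 counts with DMSO and 66 and 73 with DAPT, or 2.44 and 2.08 against 1.37 and 1.48 CPM. The groups did not overlap, and the level fell by 36.7% (log2 fold change −0.66, SE 0.190, 95% interval −1.05 to −0.26, edgeR FDR 0.00868). The call was lost without DMSO replicate 1 (−0.55, edgeR FDR 0.0803) and in DESeq2 (−0.67, FDR 0.100), and its other alternatives gave an FDR of 0.000105 to 0.0319.

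Among these 3 elongases the balance shifted towards *Elovl1*. Per kilobase of exon, *Elovl1* made up 67.7% and 68.9% of their sum with DMSO and 76.8% and 76.4% with DAPT. The counting intervals of these shares (66.7% to 68.6%, 68.1% to 69.7%, 76.1% to 77.6% and 75.6% to 77.2%) did not meet between the groups. The *Elovl5* share went from 31.8% and 30.6% to 22.8% and 23.3%, and that of *Elovl6* from 0.576% and 0.483% to 0.307% and 0.329%. With the longest transcript in place of the summed exons the *Elovl1* share was 71.4% and 72.5% against 79.8% and 79.4%. The direction could not depend on the length, since *Elovl1* was higher and *Elovl5* and *Elovl6* lower in both DAPT libraries. Another elongase, *Elovl7*, had a log2 fold change of −0.51 that did not pass the test (edgeR FDR 0.0891).

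**Figure D2:**
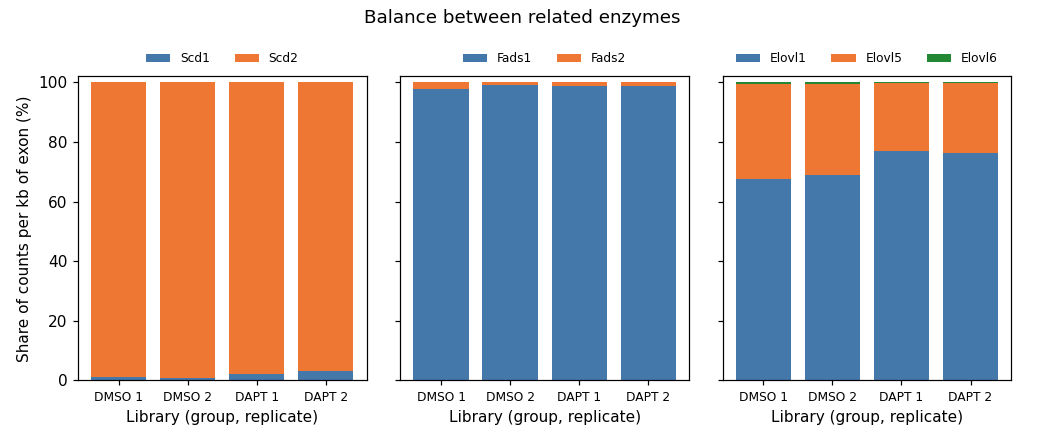
Share of each enzyme in the counts per kilobase of exon of its family, in percent, for each of the 4 libraries (left *Scd1* and *Scd2*, middle *Fads1* and *Fads2*, right *Elovl1*, *Elovl5* and *Elovl6*). Over the libraries *Scd2* fills 97.0% to 99.2% of its family and *Fads1* 97.6% to 99.0%. The *Elovl1* share is 67.7% and 68.9% with DMSO and 76.8% and 76.4% with DAPT.

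The polyunsaturated desaturases were not called. *Fads1* (ENSMUSG00000010663, chr19:10182888-10196877, plus strand) stood at 43.1 and 43.9 CPM with DMSO and at 47.4 and 46.4 CPM with DAPT. Both DAPT values were slightly higher, and the 95% interval of the log2 fold change, −0.045 to 0.26 around 0.11 (SE 0.0726, edgeR FDR 0.258), leaves room for no change and for a rise of that size. *Fads2*, which acts before *Fads1* in the same route (ENSMUSG00000024665, chr19:10062765-10101746, minus strand), had 31 and 18 counts with DMSO and 17 and 18 with DAPT. The groups overlapped, and 1 library set the apparent difference: the log2 fold change was −0.47 (SE 0.400, 95% interval −1.31 to 0.36, edgeR FDR 0.370), 0.17 without DMSO replicate 1 and −1.01 without DMSO replicate 2. *Fads1* made up 97.6% and 99.0% of the *Fads1* and *Fads2* signal per kilobase with DMSO and 98.9% in both DAPT libraries. *Fads3*, a further paralog, was at 0.935 ± 0.0734 CPM with DMSO and 0.992 ± 0.144 CPM with DAPT (SD, n = 2 each; log2 fold change 0.078, edgeR FDR 0.830, and −0.078 without DAPT replicate 2).

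**Figure D3:**
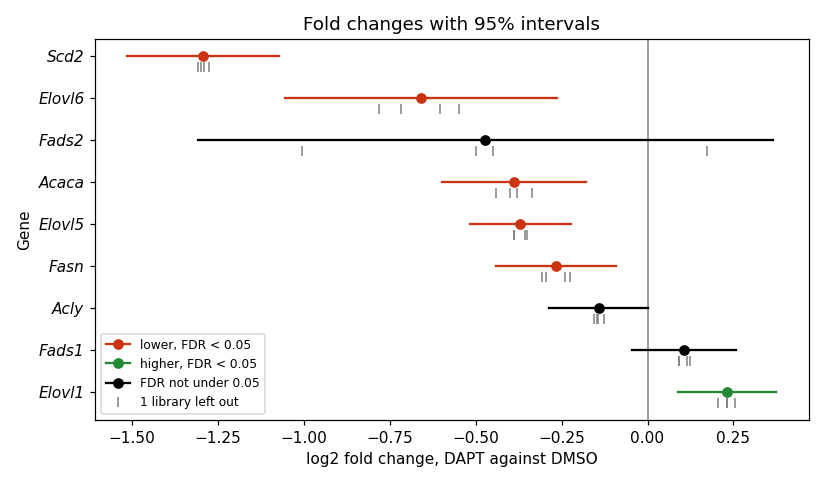
Log2 fold change of DAPT against DMSO for the 9 tested genes (points) with 95% intervals (bars) and the values left after removing 1 library (grey ticks). The *Scd2* interval, −1.51 to −1.07, lies below those of all other genes but *Fads2*, whose interval starts at −1.31, and that of *Elovl6* starts at −1.05.

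Set side by side per kilobase of summed exon, the levels spanned 3 orders of magnitude. *Elovl1* led with 44.5 and 46.2 CPM per kilobase in the DMSO and 53.2 and 53.3 in the DAPT libraries. *Acly* (24.0 in both DMSO, 21.9 and 21.5 in the DAPT libraries) and *Elovl5* (20.9 and 20.5, then 15.8 and 16.3) followed. *Fads1* came next at 8.96 and 9.12 CPM per kilobase with DMSO and 9.84 and 9.63 with DAPT. Each of these 4 levels was apart from its neighbours by more than the spread between replicates. *Scd2* (2.31 and 2.30) lay above *Fasn* (2.07 and 2.16) with DMSO and below it with DAPT (0.950 and 0.930 against 1.71 and 1.81). With the longest transcript as length their order with DMSO was not fixed, *Scd2* at 2.31 and 2.30 and *Fasn* at 2.25 and 2.35 CPM per kilobase, and *Scd2* was again the lower with DAPT. By summed exon length *Acaca* (0.652 and 0.662, then 0.483 and 0.521) and *Elovl6* (0.379 and 0.323, then 0.212 and 0.230) came next in every library. *Fads2* (0.0963 to 0.219 over all libraries) and *Scd1* (0.0180 to 0.0290) closed the order. By the longest transcript *Acaca* (0.934) lay just above *Scd2* (0.932) in DAPT replicate 2. The *Acaca* level depended most on the length chosen, since its summed exons measure 17074 bases and its longest transcript 9513, which gives 0.657 and 1.18 CPM per kilobase as the DMSO mean.

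The counts of the gene lists that follow are to be read against the 21.9% of all tested genes that fell and the 19% that rose. Of 23 further genes of synthesis, elongation and desaturation, 18 were tested, 3 fell and 4 rose, shares near those of all genes, with a median log2 fold change of 0.14. *Hacd4*, of the dehydratase family that acts in the elongation cycle, fell by 0.38 on the log2 scale (edgeR FDR 0.000633), and so, weakly, did *Fads6* (−0.45, edgeR FDR 0.0485), whose call was lost without any 1 of the 4 libraries (−0.53 to −0.35, edgeR FDR 0.0625 to 0.285) and in DESeq2 (FDR 0.278). *Mcat*, the malonyl transferase of mitochondrial fatty acid synthesis, rose by 0.45 (edgeR FDR 0.00488, and 0.0516 without DMSO replicate 2, the FDR ranging from 0.000314 to 0.0535 over its alternatives). The count of genes that rose in this list was 2 without DMSO replicate 2 and in DESeq2, 7 with the replicate number as a block and 8 with the 16 runs as samples.

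Genes that feed the pathway with citrate, acetyl-CoA and NADPH rose or were not called. Of 12 genes, all tested, 5 rose and 0 fell in edgeR (median log2 fold change 0.11), DESeq2 gave 5 and 0, the 16 runs as samples gave 9 and 1, and at an unadjusted p under 0.05 the counts were 5 and 1. The 1 that fell is *Idh2* (−0.20, edgeR FDR 0.0514), named after its values were seen, which was called lower with RLE or no normalization factors, with at least 10 counts in every library, with the replicate block and with the 16 runs as samples. Malic enzyme *Me1*, a source of NADPH, rose from 5.07 and 3.98 CPM to 7.86 and 8.26 CPM (log2 fold change 0.84, edgeR FDR 2.16e-05). *Acss2*, which makes acetyl-CoA from acetate, rose from 8.97 and 8.60 CPM to 12.4 and 13.4 CPM (0.56, edgeR FDR 0.000140). *Pgls* of the pentose phosphate pathway rose by 0.37 (edgeR FDR 0.000521). The supply genes that passed the test therefore moved opposite to *Acaca*, *Fasn* and *Scd2*.

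Of the regulators of lipid synthesis 4 of 19 tested genes fell and 4 rose (20 listed, median log2 fold change 0.011), about the shares of all tested genes (21.9% and 19%). *Srebf1*, which encodes SREBP-1, stood at 43.1 and 48.6 CPM with DMSO and at 40.4 and 46.2 CPM with DAPT, overlapping and not called (−0.085, edgeR FDR 0.441). Its sign was not stable, at 0.0027 without DMSO replicate 2 and 0.0090 without DAPT replicate 1. *Srebf2*, which encodes the relative that chiefly drives sterol genes, rose from 52.1 and 59.6 CPM to 84.2 and 84.3 CPM (0.59, edgeR FDR 3.27e-06). *Insig1*, a sterol-induced brake on SREBP processing and itself an SREBP target, rose from 76.1 and 75.9 CPM to 137 and 130 CPM (0.81, edgeR FDR 1.42e-08). *Nr1h3*, which encodes LXRα, rose from 31.8 and 30.1 CPM to 54.4 and 55.2 CPM (0.83, edgeR FDR 2.54e-08), while *Nr1h2*, which encodes LXRβ, was at 108 ± 8.03 and 109 ± 0.990 CPM (SD, n = 2 each; 0.011, edgeR FDR 0.921, and −0.064 without DMSO replicate 1). The 4 regulators that fell, named after their values were seen, were *Rxra* (−0.44, edgeR FDR 0.00242), the LXR partner, *Pparg* (−0.29, edgeR FDR 0.0112), *Scap* (−0.29, edgeR FDR 0.00996), which escorts SREBPs, and *Mbtps2* (−0.21, edgeR FDR 0.0377), which cleaves them. Without 1 library the log2 fold change of *Rxra* ran from −0.45 to −0.43 and that of *Mbtps2* from −0.27 to −0.16. Those of *Scap* and *Pparg* both ran from −0.41 to −0.18. *Rxra* kept its call in all of these fits, while *Scap*, *Pparg* and *Mbtps2* lost theirs in some. *Mlxipl*, which encodes the carbohydrate-responsive factor ChREBP, had 3 to 6 counts per library and was not tested. Without DMSO replicate 1, DMSO replicate 2 or DAPT replicate 1 the number of regulators that fell was 2.

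Of 8 genes listed as LXR targets, 5 were not called, near the share of all tested genes (40.8% called). The 2 that fell were the cholesterol exporters *Abca1* (−2.28, edgeR FDR 1.53e-13) and *Abcg1* (−0.64, edgeR FDR 2.76e-07). The 1 that rose was *Nr1h3*, which is also on the list of regulators. Of 20 genes of cholesterol synthesis and uptake, 19 were tested, 16 rose and 0 fell in edgeR, and the median log2 fold change was 0.86. The counts were the same at an unadjusted p under 0.05 and were 15 and 0 in DESeq2. Among them were *Mvd* (1.41, edgeR FDR 3.45e-08) and *Idi1* (1.35, edgeR FDR 2.38e-06), both enzymes of the sterol route. Thus genes of sterol synthesis rose in the same libraries in which *Scd2*, *Elovl6*, *Acaca*, *Elovl5* and *Fasn* fell.

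Genes that activate or oxidize fatty acids were also called in both directions, at up to 6 of 19 in 1 direction against the 21.9% of all tested genes that fell and the 19% that rose. In activation and glycerolipid assembly (21 listed, 19 tested) 6 fell and 4 rose, the latter 2 without DMSO replicate 1, with a median log2 fold change of −0.17. *Lpcat1*, which makes saturated phosphatidylcholine, fell from 37.2 ± 1.07 to 20.6 ± 0.674 CPM (−0.86, edgeR FDR 3.69e-08), whereas the acyl-CoA synthetase *Acsl1* rose from 727 ± 37.7 to 1187 ± 52.0 CPM (0.71, edgeR FDR 2.52e-07) and the transporter *Slc27a1* rose by 0.52 (edgeR FDR 4.18e-05). In oxidation (18 listed, 17 tested) 3 fell and 3 rose, and the counts were 1 and 1 without DMSO replicate 1, 2 and 1 in DESeq2 and 5 and 8 with the 16 runs as samples. *Slc25a20*, the carnitine carrier, fell by 0.52 on the log2 scale (edgeR FDR 1.40e-05) and *Echs1* rose by 0.42 (edgeR FDR 0.000354). *Etfb*, an electron carrier of the same route, rose by 0.33 (edgeR FDR 0.0148), with 0.22 and an FDR of 0.201 without DMSO replicate 1 and an FDR of 0.00079 to 0.0779 in its other alternatives.

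Of 13 genes of uptake, storage and release 3 fell and 5 rose (median log2 fold change 0.28), against 21.9% and 19% of all tested genes. The fatty acid binding proteins *Fabp5*, from 52.1 ± 4.20 to 159 ± 10.4 CPM (1.61, edgeR FDR 5.15e-12), and *Fabp4* (1.14, edgeR FDR 7.35e-08) rose. Lipoprotein lipase *Lpl*, which frees fatty acids from circulating lipid, fell from 3532 ± 262 to 1713 ± 72.2 CPM (−1.04, edgeR FDR 2.31e-09). All SDs are over n = 2 libraries.

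**Figure D4:**
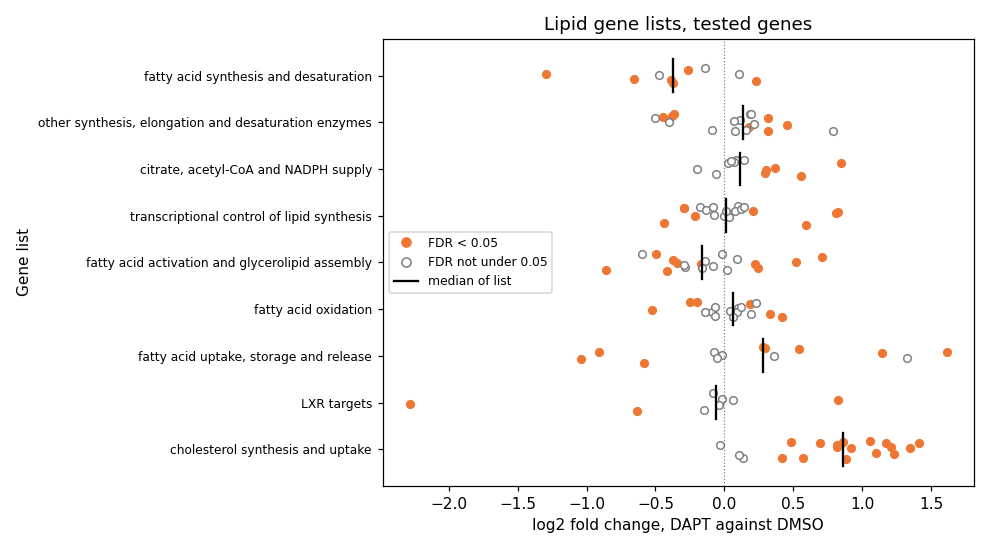
Log2 fold change of DAPT against DMSO for the tested genes of 9 lipid gene lists (filled points FDR under 0.05, open points not, black line the median of the list). The 9 tested genes of synthesis and desaturation have a median of −0.37, and those of cholesterol synthesis and uptake one of 0.86.

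Some cell state markers were also called, in both directions. Of 7 macrophage markers 5 fell and 1 rose (median log2 fold change −0.44), among them *Cd14* (−0.64, edgeR FDR 1.60e-06), *Itgam* (−0.63, edgeR FDR 1.15e-06) and *Mertk* (0.64, edgeR FDR 1.62e-06). Of 7 markers of cycling cells 6 fell and 0 rose in edgeR, in DESeq2 and at an unadjusted p under 0.05 (median −0.83), led by *Plk1* (−1.51, edgeR FDR 3.07e-08), *Top2a* (−1.28, edgeR FDR 4.73e-11) and *Ccnb1* (−0.88, edgeR FDR 6.16e-07), and their summed level was 685 and 689 CPM with DMSO and 511 and 512 CPM with DAPT. Of the dendritic cell markers 4 were tested and *Xcr1* fell (−0.42, edgeR FDR 0.0175, lost without DMSO replicate 1 at 0.0992 and without DAPT replicate 2 at 0.0842, with an FDR of 0.00019 to 0.128 over its alternatives). Of the 7 neutrophil and granulocyte precursor markers 2, and of the 6 lymphocyte markers 1, were tested and 0 were called in edgeR or DESeq2. At an unadjusted p under 0.05 the counts were 0 and 1, the latter *Cd4*, at 0.458 to 1.01 CPM and named after its values were seen. The part of these markers in the lower *Scd2*, *Elovl6*, *Acaca*, *Elovl5* and *Fasn* was not tested.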

How the data were processed

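RNA-seq libraries were made by the authors with a stranded poly(A) kit, trimmed with Trimmomatic, aligned to mm10 with STAR (version 2.5.0a per the labels, which also list mm9) and counted with HTSeq. The deposited values are raw read counts per gene and run, not normalized. The HTSeq mode and strand setting are not given in the sources used here, so reads of near-identical copies or of overlapping genes may have been dropped or shared. The methods place the GSI overnight before activation, whereas legends of other experiments give a shorter time.

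The 4 runs of each of 2 replicates per group differed by no more than sampling noise (chi-square per degree of freedom 1.01 to 1.03, 0 genes at an FDR under 0.05) and were summed to 4 libraries. The main test was edgeR 4.0.16 (R 4.3.3; filterByExpr, TMM factors, quasi-likelihood test, group as the only factor) on 13211 genes with Benjamini-Hochberg adjustment. Standard errors were |log2 fold change|/√F. CPM used TMM-adjusted totals. Exons came from GENCODE M21, which held 46488 of 47069 gene IDs (98.77%). Intervals and floors cover counting error only. A fit without 1 library assumes that the lone library varies like the other group.

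The members, gene lists and tests were chosen with earlier results of these data known. Named were the 10 members, the 3 largest changes with an FDR under 0.05 and a mean of at least 1 CPM in each list, and 11 regulators and paralogs. 1 gene given by this rule is not reported here. Alternatives were DESeq2 (version 1.42.0), RLE factors, plain library totals, other count filters (at least 1 count in all, at least 10 in every library), a replicate block, 16 runs as samples, a 1.5-fold cut-off, the longest transcript as length, and leaving out each library. FDR ranges over the alternatives include the 16 runs as samples, which treats runs of 1 library as replicates. The edgeR fit was also run on simulated data, with dispersions from these data and far fewer changed genes. That run lends no support to the calls reported here.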

Additional observations from a re-analysis of the deposited data

How the results depend on the processing

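Of the 98 values of the 9 tested members under alternative settings, 89 kept their direction and their side of the threshold, 6 kept the direction but lost the call, 2 gained a call (*Acly* and *Fads1* with the 16 runs as samples, which treats runs of 1 library as replicates) and 1 turned (*Fads2*). The number of members that fell was 5, but 3 in DESeq2 and 2 with a cut-off of 1.5-fold, and without 1 library it was 4 to 5. The number that rose was 1, but 2 with the 16 runs and 0 with the 1.5-fold cut-off, and without 1 library it was 0 to 1. Their median log2 fold change of −0.37 became −0.31 with at least 1 count in all (where *Scd1* is included), −0.32 with the 16 runs (where *Fads2* is left out) and −0.32 in DESeq2, and without 1 library it ran from −0.39 to −0.30. In every setting 0 members passed both thresholds. Among all genes, 3896 rose with the 16 runs against 2504, and those past both thresholds were 385, 178 with the 16 runs and 154 with at least 10 counts in every library. The causes of these shifts were not tested. Without 1 library the log2 fold change of *Fads2* ran from −1.01 to 0.17, of *Acacb* from −0.32 to 0.77, of *Fads3* from −0.078 to 0.22, of *Nr1h2* from −0.064 to 0.086 and of *Srebf1* from −0.19 to 0.0090, with 0.0027 without DMSO replicate 2. With the replicate number as a block, 5 members fell and 1 rose, as without it, and 3314 genes fell and 3130 rose. The labels do not say that replicate numbers mark a shared source. The deviations of log2 CPM from the group mean correlated at r = 0.155 between same-numbered libraries over 13211 genes. With 2 libraries per group this is a single value, since the other pairing gives −0.155 by construction. Whether the numbers pair the samples is therefore not known, and they were not treated as pairs. The depth limits *Scd1* and *Fads2*, at 5 to 7 and 17 to 31 counts per library.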
